A study of Mus musculus with 4 samples.

Results

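Mitochondrial chaperones and proteases are described here through 10 genes, chosen by symbol from the 22186 genes of the deposited table: the chaperone genes Hspd1, Hspe1, Hspa9, Dnaja3 and Trap1, and the protease genes Lonp1, Clpp, Clpx, Htra2 and Yme1l1. Clpx encodes the unfolding partner of the ClpP protease and is grouped with it. RNA was sequenced from MC38, a mouse colon carcinoma cell line, with the genotype TetOn-CXCL14, a stable construct in which doxycycline switches on expression of the chemokine CXCL14. All 4 libraries carried that construct: 2 were control cultures given PBS, the solvent, and 2 were cultures given 1 µg/mL doxycycline (DOX), each harvested after 72 h. Whether the line is a single clone is not given in the sources used here, and no analysed culture received doxycycline without the construct, so doxycycline and CXCL14 cannot be told apart. Doxycycline is a tetracycline, a class of antibiotics known to inhibit the ribosomes of mitochondria. The series text calls the samples of a group biological replicates, and it describes the controls as harvested ahead of induction, whereas the treatment protocol gives them PBS over the same 72 h. The question was which transcripts differed once CXCL14 was induced.

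Levels are in TPM, a share of all transcripts in a library corrected for transcript length, so levels of different genes can be set side by side. The table holds no read counts, and the depth of each library is unknown. Differences were tested with limma on log2(TPM + 1) over the 11359 genes whose mean across the 4 libraries reached 1 TPM. A difference was called at a Benjamini-Hochberg adjusted p under 0.05 over all of them, and log2 changes are DOX minus control with a standard error (SE). Cxcl14 stood at 27.3 and 29.2 TPM in control cells against 385 and 391 TPM in DOX cells, which matches the labels. The 9 epithelial markers examined were each below 1 TPM in every library, and Cdh1, Krt19 and Cdx2 were listed at 0 in all 4, although the label names colon cancer cells. The 6 fibroblast markers summed to 3428 and 3620 TPM in control cells against 523 and 493 TPM in DOX cells, nearly all of it Dcn and Pdgfra. Col1a1 did not fall, at 2.43 and 2.14 TPM in control cells against 3.39 and 2.02 TPM in DOX cells (log2 change 0.15, limma adjusted p = 0.52). Lum was at 0.15 and 0.21 TPM in control cells and at 0 after doxycycline. Fap was at 0 in 3 of the 4 libraries, and Col1a2 stayed below 1 TPM. The 7 macrophage markers summed to 12.1 and 10.3 TPM and then 7.48 and 8.89 TPM, with C1qa and Laptm5 at 0 throughout, and the 5 endothelial markers summed to less than 1 TPM in every library. The part of these marker differences in the results was not tested, and in bulk RNA fewer cells of a type and less RNA per cell cannot be told apart. Exact permutation of 2 against 2 libraries cannot give a two-sided p below 0.333, and the tests of single genes therefore borrow their error estimate from all genes through limma.

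Most mitochondrial proteins are made in the cytosol and enter the organelle unfolded. In the matrix, the HSP70 protein mortalin (Hspa9), with its J-domain partner (Dnaja3), binds the incoming chains, and the barrel formed by HSP60 (Hspd1) and its lid HSP10 (Hspe1) encloses them while they fold. Trap1 is the mitochondrial HSP90. Proteins that fail to fold are degraded in the matrix by Lonp1 and by the ClpXP complex of an unfolding ring (Clpx) and a peptidase barrel (Clpp), at the inner membrane by proteases such as Yme1l1, and between the membranes by Htra2. Chaperone and protease genes of this kind are the classical readout of the mitochondrial unfolded protein response, in which the transcription factors ATF4, ATF5 and CHOP (Ddit3) have been implicated.

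Hspd1 and Hspe1 lie head to head in the mouse genome and are known to share a promoter region, so the sequence around their starts is shown first. Lonp1 and Trap1 are shown as further genes that rose, and Yme1l1 as one without a called change. RefSeq promoter windows (GRCm38.p6, an earlier build than the mm39 named for the expression data) run from 250 bases before to 50 bases after an annotated start and are described for 8 of the 10 genes. The sequence processing done for this report, not that of the submitters, left out the chromosome that carries Hspa9, so no window of that gene is described. None is described for Htra2 either. Sequences run 5′ to 3′ on the strand of the gene, and capitals mark matches on either strand to any of 5 motifs: a heat shock element of 3 alternating units (GAANNTTCNNGAA), the core bound by CHOP (TGCAAT), the C/EBP-ATF composite element (TGATGNAA), the E-box (CACGTG) and the cyclic AMP response element (TGACGTCA). The windows shown and the motifs were chosen after expression values and sequences had been seen.
Hspe1, chr1:55087898-55088197, plus strand: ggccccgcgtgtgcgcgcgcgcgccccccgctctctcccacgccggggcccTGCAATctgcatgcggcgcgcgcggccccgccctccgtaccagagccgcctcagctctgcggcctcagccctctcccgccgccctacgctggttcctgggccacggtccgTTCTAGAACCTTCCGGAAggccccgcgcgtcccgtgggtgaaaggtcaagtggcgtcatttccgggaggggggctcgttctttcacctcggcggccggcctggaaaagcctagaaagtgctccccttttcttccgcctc
Lonp1, chr17:56626854-56627153, minus strand: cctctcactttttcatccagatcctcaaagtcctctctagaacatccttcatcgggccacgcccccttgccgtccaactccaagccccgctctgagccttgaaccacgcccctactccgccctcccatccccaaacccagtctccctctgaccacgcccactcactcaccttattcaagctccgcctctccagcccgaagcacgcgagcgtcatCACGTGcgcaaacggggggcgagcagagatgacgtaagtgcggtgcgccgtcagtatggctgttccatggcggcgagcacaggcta
Trap1, chr16:4077761-4078060, minus strand: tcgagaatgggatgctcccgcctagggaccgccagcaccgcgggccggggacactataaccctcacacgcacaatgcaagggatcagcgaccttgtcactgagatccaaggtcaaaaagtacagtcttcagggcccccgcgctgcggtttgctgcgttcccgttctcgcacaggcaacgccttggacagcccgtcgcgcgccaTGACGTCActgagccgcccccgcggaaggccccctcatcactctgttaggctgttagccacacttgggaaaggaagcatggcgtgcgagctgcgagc
Yme1l1, chr2:23156255-23156554, plus strand: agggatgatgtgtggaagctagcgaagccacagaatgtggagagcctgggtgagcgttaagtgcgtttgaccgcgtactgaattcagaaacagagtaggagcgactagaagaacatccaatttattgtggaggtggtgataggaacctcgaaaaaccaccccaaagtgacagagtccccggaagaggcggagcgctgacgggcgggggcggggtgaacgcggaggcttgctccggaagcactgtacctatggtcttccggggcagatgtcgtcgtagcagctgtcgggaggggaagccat

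In the Hspe1 window, 2 overlapping heat shock elements began 89 and 84 bases before the start, and the CHOP core began 199 bases before it. RefSeq gives Hspd1 2 starts on the opposite strand, 1 located 216 bases upstream of the Hspe1 start and 1 located 95 bases inside Hspe1. The window of the first overlapped that of Hspe1 by 285 of 300 bases, so both genes carry the same matches in opposite orientation. A heat shock element of this form was present in 0.603% of the 32851 mouse windows of this length, the CHOP core in 8.40%, the C/EBP-ATF element in 3.97%, the E-box in 7.15% and the cyclic AMP response element in 1.79%. Lonp1 held an E-box that began 36 bases before its start, and Trap1 a cyclic AMP response element that began 47 bases before its start. The second Hspd1 window held an E-box. The windows of Dnaja3 and Clpp, which also rose, and of Clpx and Yme1l1, without a called change, held none of the 5 motifs. A match describes the letters in a window, and binding was not measured.

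**Figure D1:**
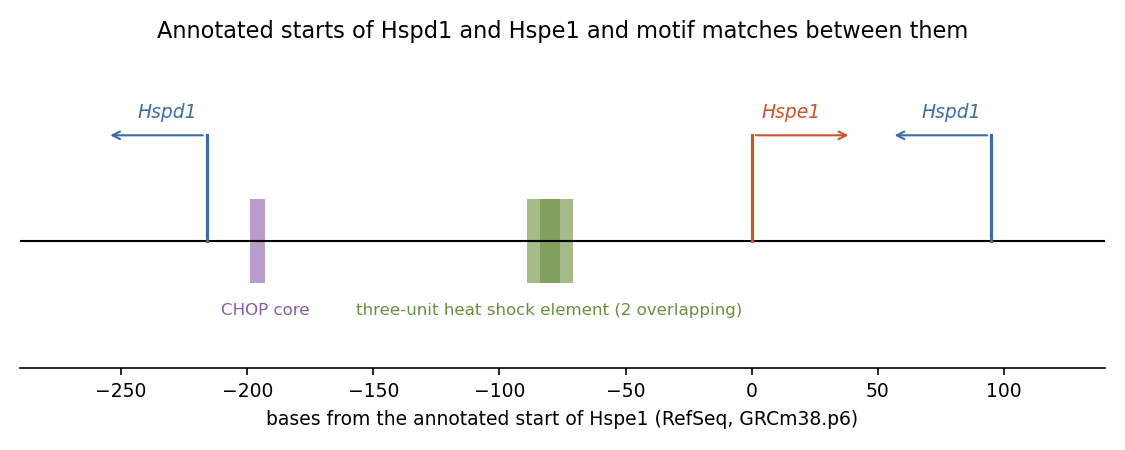
Map of the region between the annotated starts of Hspd1 (blue, transcribed to the left) and Hspe1 (red, transcribed to the right), with distance in bases from the Hspe1 start on the x axis. Coloured boxes mark the motif matches: the CHOP core begins 199 bases and the overlapping heat shock elements begin 89 and 84 bases before the Hspe1 start.

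After doxycycline, 8 of the 10 genes rose and 0 fell. Over all genes tested, 29.0% were called higher and 35.4% lower, so 64.4% were called in either direction. The balance over all genes turned with the scaling: here 3295 genes rose and 4017 fell, whereas with median-of-ratios scaling 3809 rose and 3552 fell. With quantile normalization 3870 rose and 3356 fell. The median log2 change of the 10 genes was 0.78, against -0.043 for all genes tested. All 5 chaperone genes rose, as did 3 of the 5 protease genes, whereas Clpx and Yme1l1 did not pass the test. The rises of Lonp1, Hspe1, Dnaja3 and Hspd1 were at least 1 on the log2 scale, a size reached by 3.48% of all genes tested in the upward direction. All 10 genes passed the filter on low values, and the lowest of their means over the 4 libraries was 56.4 TPM. Together they held 2224 and 2174 TPM in control cells against 4492 and 4609 TPM in DOX cells.

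**Figure D2:**
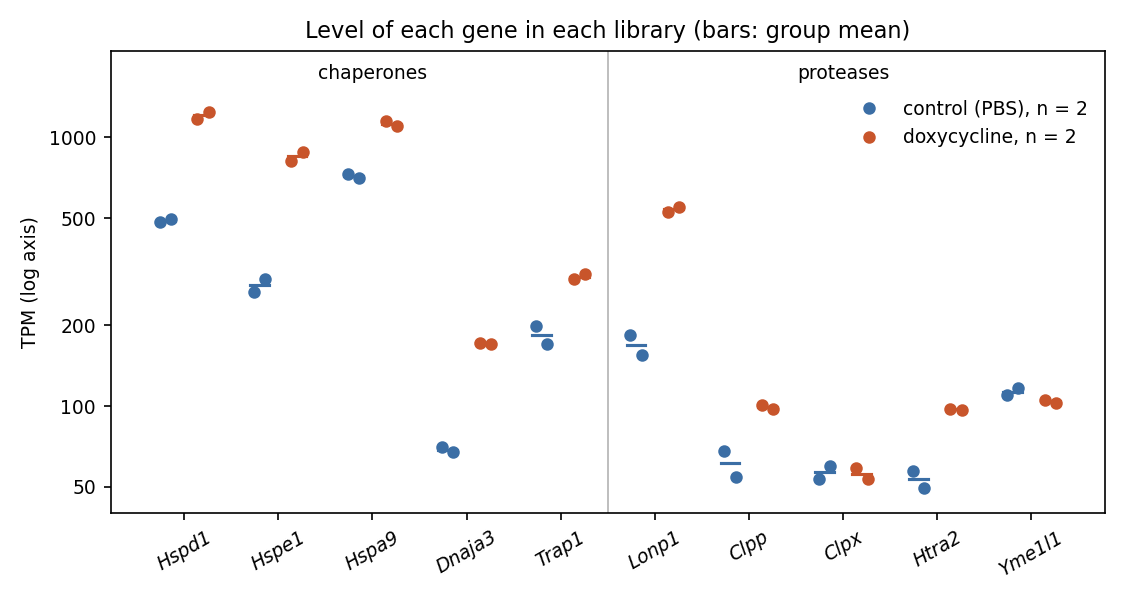
TPM of the 10 genes (log axis) in each of 2 control libraries (blue) and 2 doxycycline libraries (red), with short bars at the group means. For 8 genes both doxycycline points lie above both control points, for Clpx the groups overlap, and for Yme1l1 the doxycycline points lie below.

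The chaperonin genes were among the most abundant of the 10. Hspd1, the barrel subunit, stood at 486 and 495 TPM in control cells against 1167 and 1246 TPM in DOX cells. Both doxycycline libraries were far above both controls, and within a group the libraries lay close together. Its mean rose from 490.3 ± 6.31 to 1207 ± 55.5 TPM (SD, n = 2), or 2.46-fold (log2 change 1.30, SE 0.065, limma adjusted p = 3.7e-07). Hspe1, the lid, stood at 267 and 297 TPM in control cells against 818 and 884 TPM in DOX cells. Its groups did not overlap either, and it rose from 282 ± 21.1 to 851 ± 46.9 TPM, or 3.02-fold (log2 change 1.59, SE 0.073, limma adjusted p = 2.3e-07). Of all genes tested, 37.7% had both DOX libraries above both controls.

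Hspa9, which encodes mortalin, had the highest control level of the 10 genes, with 730.0 and 709 TPM in control cells against 1147 and 1099 TPM in DOX cells. The groups were apart, though by less than for the chaperonins: it rose from 719 ± 15.2 to 1123 ± 33.7 TPM, or 1.56-fold (log2 change 0.64, SE 0.065, limma adjusted p = 2.7e-05). Dnaja3, its J-domain partner, stood at 70.4 and 67.4 TPM in control cells against 172 and 170.0 TPM in DOX cells. Its libraries agreed closely within each group, and it rose from 68.9 ± 2.12 to 171 ± 1.45 TPM, or 2.48-fold (log2 change 1.30, SE 0.059, limma adjusted p = 2.2e-07). Trap1 stood at 198 and 170.3 TPM in control cells against 297 and 309 TPM in DOX cells. The controls of Trap1 lay further apart than its treated libraries, but both were below them, and it rose 1.64-fold (log2 change 0.72, SE 0.077, limma adjusted p = 3.9e-05).

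Among the proteases, Lonp1 showed the steepest rise of the 10 genes and ranked 91 among all genes tested ordered by log2 change. It stood at 184 and 154 TPM in control cells against 528 and 549.9 TPM in DOX cells, with no overlap between groups. The rise was 3.18-fold (log2 change 1.67, SE 0.083, limma adjusted p = 3.5e-07). Htra2 stood at 57.5 and 49.7 TPM in control cells against 97.9 and 96.6 TPM in DOX cells. It rose from 53.6 ± 5.50 to 97.3 ± 0.939 TPM, or 1.81-fold (log2 change 0.85, SE 0.077, limma adjusted p = 1.3e-05). Clpp, the peptidase of ClpXP, stood at 67.9 and 54.6 TPM in control cells against 101 and 97.8 TPM in DOX cells. Its controls were the most uneven of the 10 genes, differing 1.24-fold, but the groups did not overlap and it rose 1.63-fold (log2 change 0.70, SE 0.095, limma adjusted p = 1.7e-04). Without the filter on low values its adjusted p was 0.076, outside the threshold.

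Clpx and Yme1l1 set the other end of the range. Clpx, the unfolding subunit of ClpXP, stood at 53.5 and 60.1 TPM in control cells against 58.6 and 53.5 TPM in DOX cells, so its groups overlapped. Its log2 change was -0.018, with a 95% interval from -0.20 to 0.16 (limma adjusted p = 0.86). Yme1l1, the inner membrane protease facing the intermembrane space, stood at 109.5 and 117 TPM in control cells against 106 and 103 TPM in DOX cells. Both treated libraries lay just below both controls, which held for 45.0% of all genes tested. Its log2 change was -0.12, with a 95% interval from -0.26 to 0.025 (limma adjusted p = 0.13). Under quantile normalization the change of Yme1l1 was called (log2 change -0.17, adjusted p = 0.040). The intervals of both genes lie below the 95% interval of every other gene of the 10.

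**Figure D3:**
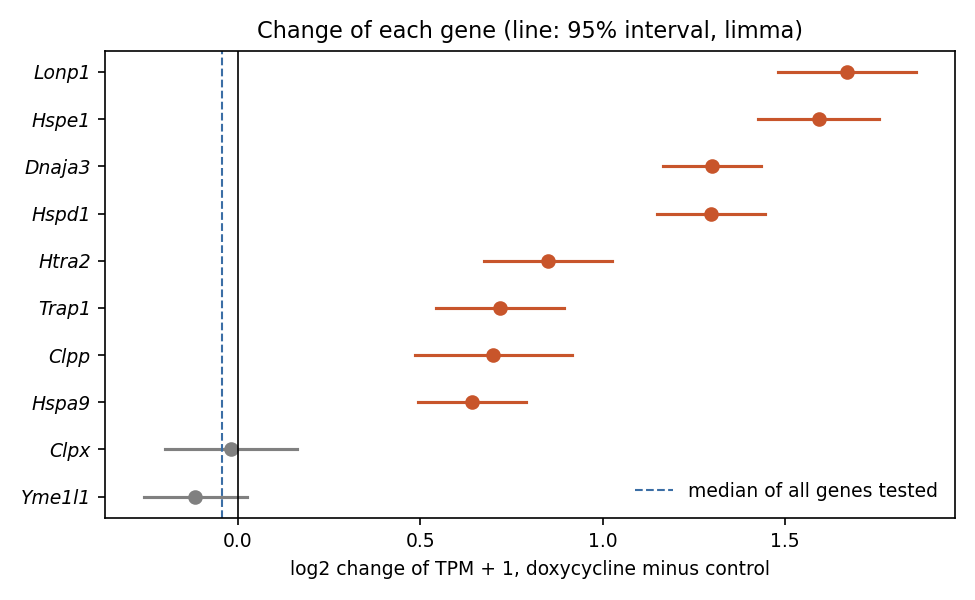
Log2 change (x axis) of the 10 genes after doxycycline, with limma 95% intervals as lines, red for called rises and grey for genes that did not pass. Lonp1 and Hspe1 lie furthest to the right, Clpx and Yme1l1 lie around 0, and the dashed line marks the median of all genes tested.

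Of the 10 genes, 6 were lower in control replicate 2 than in control replicate 1. The ratio between the 2 control libraries ranged from 1.02 for Hspd1 to 1.24 for Clpp, and that between the 2 doxycycline libraries from 1.01 to 1.10. Transcripts encoded by the mitochondrial genome made up 5.86% and 7.02% of TPM in the controls and 6.61% and 6.71% after doxycycline, so this share did not separate the groups. Of these 13 genes, ND5 was called higher (log2 change 0.41, limma adjusted p = 0.021). ATP6 (-0.79, limma adjusted p = 0.0036) and ATP8 (-0.53, limma adjusted p = 0.012) were called lower, and 10 did not pass. These calls were each lost under some alternatives. The controls were uneven for some of these genes, with ND4 at 1770 and 4167 TPM.

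Some of these rows may share reads with other loci. Hspd1 has 3 processed pseudogenes in GENCODE M21 that match it with an identity of 97% or higher along 100 bases or more, the longest match being Hspd1-ps3, and Clpx has 1. Hspe1 has 1 near-identical transcript, AC117239.2, annotated as protein-coding. None of these 5 copies was listed under its GENCODE M21 name in the expression table. The annotation behind that table is not given, so a copy could be listed under another name. Reads from an unlisted copy could have been assigned to its parent gene, and single values of Hspd1, Hspe1 and Clpx are uncertain to that extent. Strand handling in the counting is not given in the sources used here. Without strand, reads from overlapping genes on opposite strands cannot be told apart: Hspd1 and Hspe1 share 112 exon bases with each other, Htra2 shares 753 of its 2946 exon bases with Aup1 and 535 with Loxl3, Dnaja3 shares 153 with Coro7, and Trap1 shares 54 with Dnase1. Dnaja3 also shares 160 exon bases with Vasn on the same strand, where strand would not separate the reads. Aup1 rose (log2 change 0.79, limma adjusted p = 3.3e-06), as did Coro7 (0.64, adjusted p = 1.4e-04, and 0.052 without the filter) and Dnase1 (0.63), while Loxl3 (log2 change -0.76) and Vasn (-0.56, limma adjusted p = 9.9e-05) fell. These partner genes were named after their values were seen.

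Because the 10 genes did not move by the same factor, ratios between partners and between other pairs of them differed between groups. The ratio of Hspd1 to Hspe1 was 1.82 and 1.67 in control cells against 1.43 and 1.41 in DOX cells. The ratio of Hspa9 to Dnaja3 was 10.4 and 10.5 in control cells against 6.66 and 6.46 in DOX cells. For ClpXP, the ratio of Clpx to Clpp was 0.788 and 1.10 in control cells against 0.579 and 0.547 in DOX cells. In these 3 pairs both treated libraries were below both controls, that is, transcripts of the lid, the J-domain partner and the peptidase stood higher relative to those of the barrel, the HSP70 and the unfolding ring. The ratio of Lonp1 to Clpp, the peptidase-bearing genes of the matrix, was 2.71 and 2.83 in control cells against 5.21 and 5.62 in DOX cells. Hspd1 stood below Hspa9 in both controls, at ratios of 0.665 and 0.698, and above it in both treated libraries, at 1.02 and 1.13. Every ratio computed for this report, here and below, separated the groups without overlap, in one direction or the other, so separation alone does not set a pair apart. The ratios of Hspd1 to Hspe1, Clpx to Clpp, Hspa9 to Dnaja3 and Hspa9 to Grpel1 were planned, and the other ratios were not in the plan. With 2 libraries a group these ratios are given as values, and their differences were not tested.

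**Figure D4:**
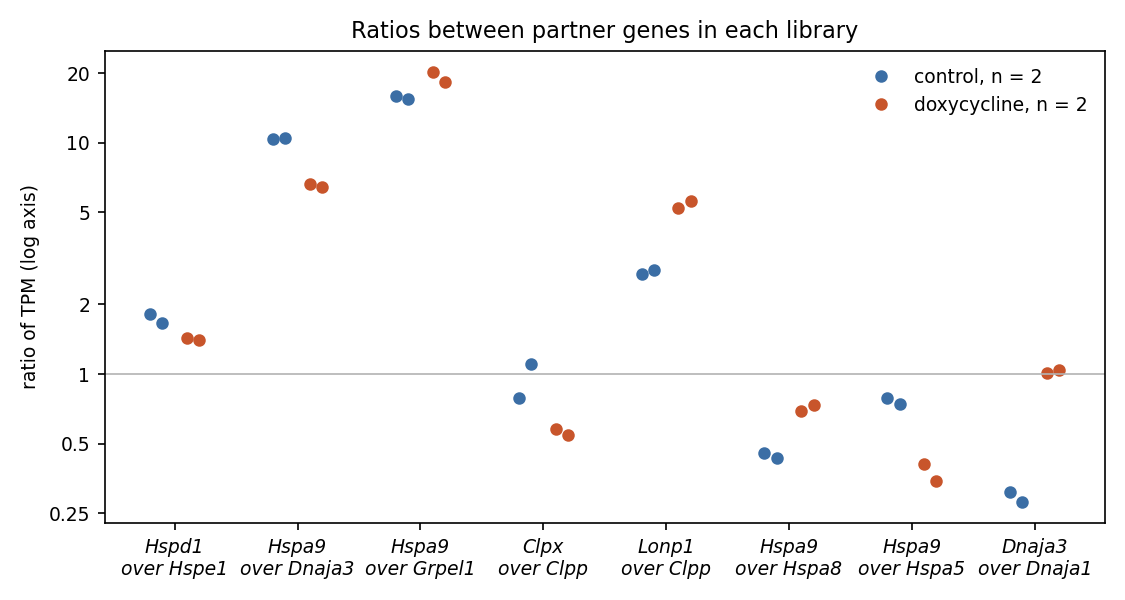
Ratio of TPM between pairs of genes (log axis) in each control (blue) and doxycycline (red) library. The title names partner genes, but Hspa8, Hspa5 and Dnaja1 are relatives outside mitochondria, and Lonp1 and Clpp belong to separate proteases of the matrix. The ratios of Hspd1 to Hspe1, Hspa9 to Dnaja3, Clpx to Clpp and Hspa9 to Hspa5 are lower in both doxycycline libraries, and those of Hspa9 to Grpel1, Lonp1 to Clpp, Hspa9 to Hspa8 and Dnaja3 to Dnaja1 are higher.

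Hspd1 was compared with all genes tested by the root mean square distance between profiles of log2(TPM + 1), each centred over the 4 libraries. The closest genes were Dennd4a (0.0106), Uqcrq (0.0161), Tmem74 (0.0172), Clcn3 (0.0275) and Dpf2 (0.0286). Of the other 9 genes described here, Dnaja3 was closest to Hspd1, at a distance of 0.0502 and position 26, and Hspe1 was at position 236. Profiles over 4 libraries in 2 groups mostly reflect the size of the group difference.

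Other chaperones and proteases of mitochondria were examined as 2 lists. Among 12 other chaperones and their assistants, 11 rose and 0 fell, with a median log2 change of 0.57, and 7 rose without the filter. Clpb, a disaggregase of the intermembrane space, rose from 32.9 ± 2.43 to 72.6 ± 2.51 TPM, or 2.21-fold (log2 change 1.12, limma adjusted p = 1.9e-06). Dnajc11 (log2 change 0.75), Dnlz, an escort of mortalin (0.67), and Stoml2, a membrane scaffold (0.66), also rose. Grpel1, the nucleotide exchange factor of mortalin, stood at 45.7 and 46.0 TPM in control cells against 56.7 and 60.2 TPM in DOX cells, a smaller rise of 1.28-fold (log2 change 0.34, limma adjusted p = 0.0016). The ratio of Hspa9 to Grpel1 was 16.0 and 15.4 in control cells against 20.2 and 18.3 in DOX cells. Hscb, the J-domain partner of mortalin in iron-sulfur cluster assembly, was the member that did not pass (log2 change 0.0043, limma adjusted p = 0.98).

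Among 15 other mitochondrial proteases, 9 rose and 3 fell, with a median log2 change of 0.22. Parl, the rhomboid protease of the inner membrane, stood at 137 and 130 TPM in control cells against 284 and 311 TPM in DOX cells and rose 2.23-fold (log2 change 1.15, limma adjusted p = 8.1e-07). The subunits of the inner membrane peptidase, Immp1l and Immp2l, rose (log2 change 0.66 and 1.04), although the control levels of Immp2l were uneven (8.73 and 3.94 TPM) and its call ended without the filter (adjusted p = 0.28) and with a robust variance model (0.099). Its log2 change was 1.53 without control replicate 1 and 0.55 without control replicate 2. Lactb, a serine beta-lactamase-like protein, fell from 38.5 ± 1.33 to 19.9 ± 2.30 TPM (log2 change -0.93, limma adjusted p = 2.3e-05). The other falls were of Spg7 and Atp23. The call of Atp23 (log2 change -0.32, limma adjusted p = 0.025) ended under 5 alternatives, among them without control replicate 1 (adjusted p = 0.16), without DOX replicate 2 (0.075) and without the filter (0.21). The m-AAA protease subunits face the matrix, as Yme1l1 faces the other side of the inner membrane, and differences between them were not tested. Afg3l1, named after its values were seen, rose from 40.7 ± 1.80 to 51.3 ± 0.765 TPM (log2 change 0.33, limma adjusted p = 0.0025). Spg7, or paraplegin, fell from 78.0 ± 2.65 to 60.6 ± 1.73 TPM (log2 change -0.36, limma adjusted p = 9.6e-04). Its partner Afg3l2 stood at 145 and 122 TPM in control cells against 144 and 147 TPM in DOX cells and was not called (log2 change 0.13, limma adjusted p = 0.19, and called at 0.015 without control replicate 1). Oma1, the stress-activated protease that cleaves DELE1, was called higher by a narrow margin (10.3 and 13.0 TPM against 16.6 and 13.9 TPM, log2 change 0.36, limma adjusted p = 0.032). That call was lost without control replicate 1 (adjusted p = 0.22), without DOX replicate 1 (0.17), without the filter (0.32) and without a variance trend (0.055).

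Of 9 regulators linked to mitochondrial stress signalling, 8 passed the filter, and of these 5 rose and 1 fell, with a median log2 change of 0.43. Atf4 stood at 651 and 619 TPM in control cells against 1406 and 1510 TPM in DOX cells and rose 2.30-fold (log2 change 1.20, limma adjusted p = 8.2e-07). Atf5, its relative with a mitochondrial targeting signal, rose from 102 ± 8.81 to 229 ± 24.0 TPM, or 2.25-fold (log2 change 1.16, limma adjusted p = 3.8e-06). Ddit3, which encodes CHOP, rose from 243 ± 16.4 to 633 ± 53.2 TPM, or 2.60-fold (log2 change 1.38, limma adjusted p = 6.8e-07). The log2 changes of these 3 genes thus ran from 1.16 to 1.38. Hspd1 and Dnaja3, both at 1.30, lay within that range, Lonp1 and Hspe1 above it, and Htra2, Trap1, Clpp, Hspa9, Clpx and Yme1l1 below it. Whether the rises of Atf4, Atf5 and Ddit3 relate to mitochondria or to another compartment was not tested. Hsf1, the heat shock factor, rose 1.34-fold (log2 change 0.42, limma adjusted p = 7.9e-04, and 0.071 without the filter), and Dele1, which relays mitochondrial stress to the cytosol, rose 1.36-fold (log2 change 0.44). Sirt3, a mitochondrial deacetylase, fell (log2 change -0.39, limma adjusted p = 0.015). That call ended without control replicate 1 (adjusted p = 0.13), without DOX replicate 2 (0.076), without the filter (0.25) and under quantile normalization (0.097). Eif2ak1 (log2 change -0.15, limma adjusted p = 0.054, and 0.025 under quantile normalization) and Nrf1 (0.11, limma adjusted p = 0.25) did not pass. For Eif2ak1 both DOX libraries lay below both controls. Ppargc1a, a regulator of mitochondrial biogenesis, was below the filter, at 1.31 and 1.13 TPM in control cells against 0.17 and 0.19 TPM in DOX cells.

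Relatives of the same families outside mitochondria were set beside the chaperones. Of 18 such genes of the cytosol and endoplasmic reticulum (ER), 17 passed the filter, 10 rose and 2 fell, with a median log2 change of 0.31. In the HSP70 family, Hspa8 of the cytosol did not pass (1605 and 1634 TPM against 1652 and 1493 TPM, log2 change -0.044, limma adjusted p = 0.64), Hspa4 rose (0.31), and Hspa5 of the ER rose 3.19-fold (log2 change 1.67, limma adjusted p = 3.2e-07). The ratio of Hspa9 to Hspa8 was 0.455 and 0.434 in control cells against 0.694 and 0.736 in DOX cells, while the ratio of Hspa9 to Hspa5 went from 0.791 and 0.745 to 0.409 and 0.346. The heat-inducible Hspa1b fell from 19.1 ± 3.11 to 7.96 ± 0.853 TPM (log2 change -1.16, limma adjusted p = 4.2e-05), and Hspa1a was below the filter. The last 2 genes are near-identical copies of each other in the mouse, so their single values are uncertain.

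In the HSP90 family, Trap1 rose while Hsp90ab1 of the cytosol (log2 change -0.11, limma adjusted p = 0.22) and Hsp90b1 of the ER (0.15, limma adjusted p = 0.092) did not pass. Hsp90b1 was called higher under median-of-ratios scaling (adjusted p = 0.022), under quantile normalization (0.0083) and without control replicate 2 (0.023). Hsp90aa1 rose (log2 change 0.48, limma adjusted p = 5.7e-04, and 0.083 without the filter). Among J-domain proteins, Dnaja1 fell from 234 ± 8.54 to 167 ± 3.95 TPM (log2 change -0.49, limma adjusted p = 8.8e-05) and Dnaja2 did not pass (log2 change -0.090, limma adjusted p = 0.19, and 0.032 under quantile normalization). The ratio of Dnaja3 to Dnaja1 was 0.308 and 0.280 in control cells against 1.02 and 1.04 in DOX cells. Of the 8 subunits of the cytosolic chaperonin, 7 rose, by log2 changes from 0.28 for Cct2 to 0.85 for Cct3, with Cct4, Cct5, Cct6a, Cct7 and Cct8 between them. Tcp1 did not pass (log2 change 0.11, limma adjusted p = 0.12, and 0.021 under median-of-ratios scaling). The ratio of Hspd1 to the mean of these 8 subunits was 1.21 and 1.23 in control cells against 1.99 and 2.09 in DOX cells. The difference between mitochondrial genes and their relatives was not tested.

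Genes of the machinery that imports these proteins were examined last. Of 26 import genes, 20 rose and 0 fell, with a median log2 change of 0.34, and 13 rose without the filter. The largest rises were of Timm10, a carrier chaperone of the intermembrane space, from 37.3 ± 1.77 to 80.8 ± 1.83 TPM (log2 change 1.10, limma adjusted p = 1.1e-06), and Tomm5, a small subunit of the outer membrane channel, from 312 ± 7.37 to 574 ± 5.73 TPM (0.87). Timm23, the channel of the inner membrane, rose (log2 change 0.76, limma adjusted p = 1.3e-04, and 0.077 without the filter), as did Timm9 (0.74), the partner of Timm10. The 4 largest changes in this list were thus all smaller than those of Lonp1, Hspe1, Dnaja3 and Hspd1. Those of Timm10 and Tomm5 were larger than those of Htra2, Trap1, Clpp, Hspa9, Clpx and Yme1l1.

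**Figure D5:**
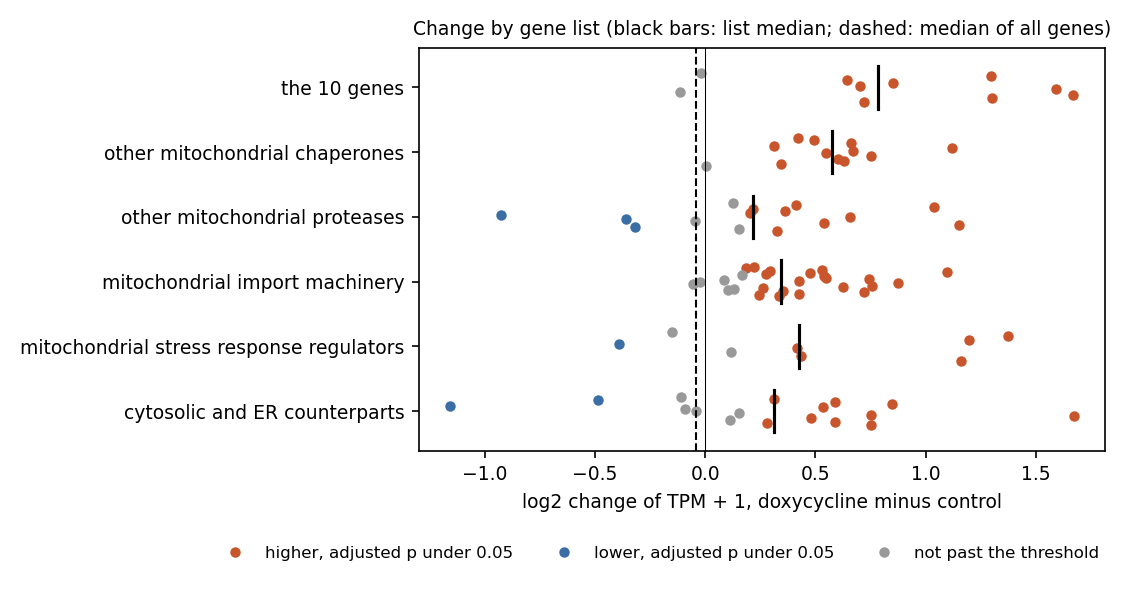
Log2 change after doxycycline (x axis) of every tested gene in 6 lists, red for called rises, blue for called falls and grey for genes that did not pass, with black bars at list medians and a dashed line at the median of all genes tested. The median is 0.78 for the 10 genes, 0.57 and 0.22 for other mitochondrial chaperones and proteases, and 0.31 to 0.43 for the remaining lists.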

How the data were processed

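RNA sequencing of 4 libraries was analysed, 2 control and 2 doxycycline, grouped by sample title. The authors deposited TPM and FPKM per gene symbol, per the file headers. The genome build was mm39, per the submitters' processing notes. For the aligner, quantifier and annotation the entry is "not given in the sources used here". The 4 sample columns of each table were matched by name.

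Computation used R 4.3.3 with limma 3.58.1, Python 3.11.15 with pandas 2.3.3, and blastn 2.17.0. Genes whose mean reached 1 TPM were tested on log2(TPM + 1) (lmFit, eBayes with trend, 2 residual and 6.98 prior degrees of freedom). The test was tried on simulated data in which far fewer genes changed than were called here. That trial therefore does not measure the error rate of these calls. Fold changes on that scale understate changes of low genes. Ratios are of mean TPM. Gene lists are described by counts and medians. Depth is unknown, so no counting interval is given.

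The 10 genes and the lists were chosen with earlier results of these data known. Named genes are the 10, fixed regulators and partners, all relatives outside mitochondria, the 4 most changed called genes of a list, and the 5 closest to Hspd1. Sirt3, Atp23, Afg3l1, Hscb, Eif2ak1, Nrf1, Ppargc1a, mitochondrial-encoded genes and genes overlapping a member were named after their values were seen. Alternatives were other pseudocounts (0.1, 0.5), filters (none, 5 TPM), FPKM, scalings, variance models, a replicate block, each library left out, and, added after the data were seen, rescaling without mitochondrial-encoded genes.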

Additional observations from a re-analysis of the deposited data

How the results depend on the processing

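Under the 15 alternatives, 8 of the 10 genes were called higher in 14, and 7 without the filter, where the change of Clpp kept its size (log2 change 0.70) at an adjusted p of 0.076. The count called lower was 0 except under quantile normalization, where it was 1 (Yme1l1, log2 change -0.17, adjusted p = 0.040). Without the filter, 22186 genes were tested and 2139 were called higher against 3295 in the main test, 7 other mitochondrial chaperones rose in place of 11, and 13 import genes in place of 20. Leaving out single libraries gave 0 to 1 stress regulators called lower, with 0 without control replicate 1 and without DOX replicate 2. The replicate block, which pairs samples of the same number, gave 8 higher and 0 lower of the 10 genes and the same counts as the main test in the 5 other gene lists, with 3387 higher and 4114 lower over all genes. Deviations of same-numbered libraries were uncorrelated (r = -0.0053 across genes), and nothing in the labels pairs them, so the block is only an alternative. With 1 library left in a group, its spread is taken from the other group's libraries. The median log2 change of all genes lay between -0.049 and 0.046 under these settings. Depth is unknown and cannot be weighed.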
